A study of Homo sapiens with 28 samples.

Results

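Members of the TGF-beta and BMP signalling system were followed across all groups of the series, 10 genes in all: the type I receptors TGFBR1, BMPR1A, BMPR1B and ACVR1, the type II receptors TGFBR2, BMPR2, ACVR2A and ACVR2B, and the signal carriers SMAD1 and SMAD5. They were chosen by gene symbol, with earlier results of these data known, and are 10 of the 30887 rows of the deposited gene table. Each symbol had 1 row. The cells were Kelly, an established human neuroblastoma line with an amplified MYCN gene, and RNA was sequenced 48 h after transfection of 25 nM of a synthetic microRNA. There were 7 groups of 4 libraries, 28 in all, which received a mimic of miR-380-3p or miR-485-3p, of miR-99b-5p or miR-100-3p, of miR-1283 or miR-1915-3p, or a non-targeting scrambled control. All groups share the line, dose and time, and nothing in the labels gives separate cultures for them, so p-values reflect the spread between these libraries only.

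TGF-beta, activins and bone morphogenetic proteins (BMPs) bind a pair of type II receptors and a pair of type I receptors at the cell surface. The type II receptor phosphorylates the type I receptor, whose kinase then phosphorylates SMAD proteins, and these enter the nucleus with SMAD4. TGFBR1 passes the TGF-beta signal mainly to SMAD2 and SMAD3, while BMPR1A, BMPR1B and ACVR1 pass BMP signals to SMAD1, SMAD5 and SMAD9. The sympathetic lineage from which neuroblastoma arises depends on BMP signals for its specification. A microRNA guides silencing complexes to messenger RNAs, mostly through pairing of its seed, bases 2 to 8, with the 3′ untranslated region (UTR).

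The depth of a library was between 10.99 M and 23.3 M expected counts (median 15.0 M). All 9 adrenergic neuroblastoma markers examined were detected, with MYCN among them, and summed to between 7325 and 13576 CPM, the counts scaled by library size, per library. The 8 markers of other cell types summed to between 6.93 and 17.3 CPM, with KRT18 at 0 in every library and COL1A1, also a target gene of the pathway, among them. The GC slope of a library, the change in its log2 CPM relative to the mean of all libraries across the full range of transcript GC content, ran from -2.16 to 3.04. In bulk RNA, fewer cells that express a gene and less of its RNA per cell cannot be told apart.

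The mature sequences of the 6 microRNAs, from RefSeq on GRCh38.p14, are shown because their seeds set which messenger RNAs can pair with them. Capitals mark the seed, and no 2 of the 6 shared one.
miR-99b-5p: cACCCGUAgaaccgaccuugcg
miR-380-3p: uAUGUAAUaugguccacaucuu
miR-485-3p: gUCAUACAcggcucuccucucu
miR-100-3p: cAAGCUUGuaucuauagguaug
miR-1915-3p: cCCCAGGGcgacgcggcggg
miR-1283: uCUACAAAggaaagcgcuuucu

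The heptamers complementary to these seeds, read on the transcript strand, are TACGGGT for miR-99b-5p, ATTACAT for miR-380-3p, TGTATGA for miR-485-3p, CAAGCTT for miR-100-3p, CCCTGGG for miR-1915-3p and TTTGTAG for miR-1283. They were counted in the longest annotated 3′ UTR of each gene. For TGFBR1, SMAD5 and BMPR2, the matches of the mimics under which they fell are printed. They are given with the heptamer in capitals and the GRCh38 coordinates of the heptamer on the plus strand. The miR-1283 match of SMAD5 and the miR-485-3p match of BMPR2 that lie closest to one of these are added. The remaining miR-1283 matches of these 3 genes are not printed.
TGFBR1 with miR-380-3p, chr9:99149913-99149919: cacttattcagaacATTACATg
TGFBR1 with miR-380-3p, chr9:99150429-99150435: tttttaagacatgaATTACATt
TGFBR1 with miR-380-3p, chr9:99151166-99151172: agaatgagtgacatATTACATa
TGFBR1 with miR-380-3p, chr9:99153634-99153640: agcagtgcaaataaATTACATt
TGFBR1 with miR-100-3p, chr9:99150221-99150227: gaatattctcacatCAAGCTTt
SMAD5 with miR-380-3p, chr5:136178453-136178459: actgcaatttatagATTACATt
SMAD5 with miR-380-3p, chr5:136179665-136179671: ccttaaatgtaagtATTACATg
SMAD5 with miR-1283, chr5:136178459-136178465: atttatagattacaTTTGTAGg
BMPR2 with miR-100-3p, chr2:202565618-202565624: ttaacatattgcagCAAGCTTa
BMPR2 with miR-485-3p, chr2:202565662-202565668: ttttacatatttttTGTATGAa

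TGFBR1 held 4 miR-380-3p heptamers in its UTR of 4887 bases, a number reached by 0.793% of the 1261 UTRs within 20% of that length. SMAD5 held 2 in 5254 bases, a number reached by 10.8% of 1107 UTRs of like length. UTRs of like length, here and below, were not matched for base composition. The single miR-100-3p heptamers of TGFBR1 and BMPR2 were less unusual, since 23.9% and 37.6% of UTRs of like length held at least 1. The first SMAD5 heptamer of miR-380-3p shares 1 base with a miR-1283 heptamer. In all, the UTRs of 6 members held 26 heptamers, of which 5 were followed by an A on the transcript. They were 8 for miR-380-3p in 4 members, 3 for miR-485-3p in 3, 2 for miR-100-3p in 2, 1 for miR-1915-3p in 1 and 12 for miR-1283 in 5. No member held the heptamer of miR-99b-5p, and none was found in the UTRs of TGFBR2, ACVR1, ACVR2A and SMAD1, the last of which is annotated with only 145 bases.

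**Figure D1:**
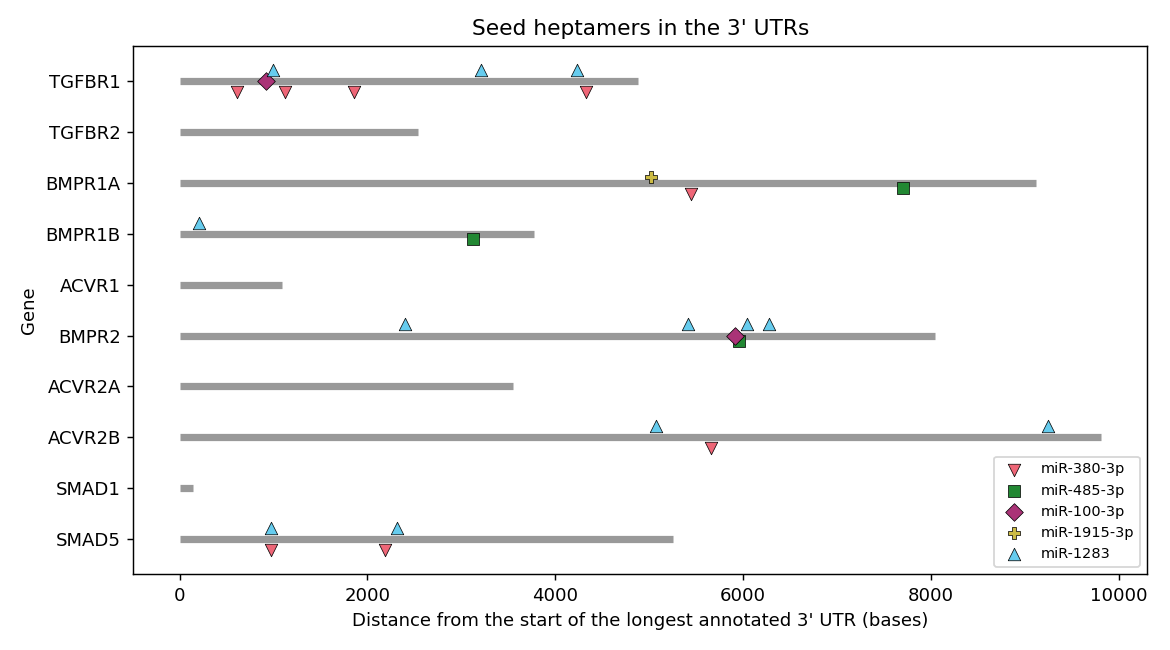
Each grey bar is the longest annotated 3′ UTR of a gene, drawn in bases from its start, and each symbol is a seed heptamer of the mimic named in the legend, set slightly above or below the bar by mimic. The 4 miR-380-3p heptamers of TGFBR1 and the 4 miR-1283 heptamers of BMPR2 are the most of any 1 mimic in 1 gene.

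All 10 members passed the filter on low counts, and the levels of the genes differed widely. Per kilobase of transcript, the control group had mean levels of 17.4 CPM for ACVR2B, 17.1 for SMAD5, 13.3 for SMAD1, 12 for BMPR1A, 7.23 for TGFBR1, 5.07 for BMPR2, 2.83 for BMPR1B, 1.86 for ACVR1, 1.37 for ACVR2A and 0.368 for TGFBR2. TGFBR2, the type II receptor for TGF-beta ligands, had only 15 to 43 counts per library. All values below are CPM, not divided by length, unless stated.

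Of the 60 comparisons of a member with the control, 9 were called at an adjusted p under 0.05 by the quasi-likelihood test of edgeR with Benjamini-Hochberg adjustment over 15058 genes. Over all genes and the same 6 comparisons, 9.13% were called. Under miR-380-3p 2 of 10 members fell and 0 rose, where 10.9% of all genes were called, 5.6% higher and 5.25% lower. Under miR-100-3p 3 fell and 0 rose (5.96% of all genes, 2.9% higher and 3.05% lower). Under miR-99b-5p 2 rose and 1 fell (16.6%, 8.11% higher and 8.48% lower), and under miR-485-3p 1 rose and 0 fell (21.1%, 10.5% higher and 10.6% lower). Under miR-1915-3p (0.246%) and miR-1283 (0.0199%) edgeR called 0 members, and DESeq2 called 0 as well, while 1 member under each had an unadjusted p under 0.05, ACVR2A in both. The median log2 change of the 10 members lay between -0.06 and 0.11 under the 6 mimics, against -0.012 to 0.025 for all genes.

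**Figure D2:**
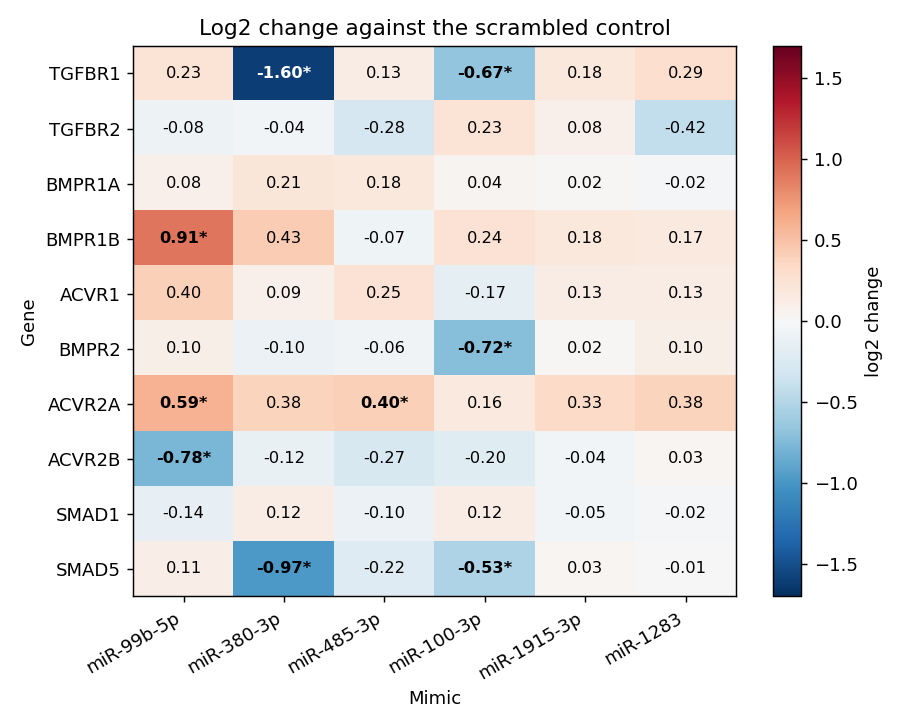
Colour and number give the log2 change of each gene (rows) under each mimic (columns) against the scrambled control, from the fit to 28 libraries, with called values marked. TGFBR1 under miR-380-3p has the largest fall, -1.60, and BMPR1B under miR-99b-5p the largest rise, 0.91.

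Among the type I receptors, TGFBR1 (ENSG00000106799, chromosome 9), the signalling kinase of the TGF-beta receptor, had the largest change. Its level was 14.1, 9.11, 7.48 and 9.38 CPM in the 4 miR-380-3p libraries, against 32.7, 32.6, 27.7 and 27.5 CPM in the control libraries. Every miR-380-3p library was lower than every control library. The log2 change was -1.60 ± 0.18 (SE, n = 4 each), a level 0.33 times that of the control (adjusted p = 1.03e-06, edgeR). The adrenergic markers summed to between 8567 and 10583 CPM in the miR-380-3p libraries, against 11404 to 12424 CPM in the control. Of the 9 markers 4 were called lower and 1 higher. The 8 markers of other cell types summed to between 13.4 and 17.3 CPM under miR-380-3p, against 12.7 to 15.4 CPM in the control. Without COL1A1, the other 7 summed to between 2.99 and 4.14 CPM, against 5.0 to 6.64 CPM in the control. The part of either list in the miR-380-3p results was not tested.

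TGFBR1 was also lower under miR-100-3p, at 21.0, 21.4, 15.9 and 17.3 CPM against the same control libraries. The groups did not overlap here either, and the log2 change was -0.67 ± 0.18 (adjusted p = 0.0204, edgeR). This call was lost on leaving out control replicate 1 or 2 or miR-100-3p replicate 3 or 4, with adjusted p between 0.0557 and 0.0823 (edgeR). The adrenergic markers summed to between 11158 and 13181 CPM in the miR-100-3p libraries, against 11404 to 12424 CPM in the control, with 3 of 9 called lower and 1 higher. The markers of other cell types summed to between 11.5 and 13.8 CPM under miR-100-3p, against 12.7 to 15.4 CPM in the control, and the part of either list in the miR-100-3p results was not tested. Compared directly, the miR-380-3p libraries were below the miR-100-3p libraries by a log2 difference of -0.93 ± 0.19 (adjusted p = 0.000727, edgeR).

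In the remaining groups TGFBR1 averaged 35.4 ± 3.89 CPM under miR-99b-5p, 32.9 ± 10.9 under miR-485-3p, 34.1 ± 4.32 under miR-1915-3p and 36.9 ± 2.67 under miR-1283, against 30.1 ± 2.91 in the control (SD, n = 4 each). The order of means ran from miR-1283 down through miR-99b-5p, miR-1915-3p, miR-485-3p and the control to miR-100-3p and miR-380-3p, and the neighbours down to the control did not differ beyond their spread. All 4 miR-1283 libraries were above all 4 controls (log2 change 0.29 ± 0.17, adjusted p = 1.0, edgeR). Within the miR-485-3p group the libraries split into 25.6 and 22.2 CPM in replicates 1 and 2 and 45.4 and 38.4 CPM in replicates 3 and 5. Replicates 1 and 2 were also below replicates 3 and 5 for BMPR1A, BMPR1B, BMPR2, ACVR2A, ACVR2B and SMAD5, but not for TGFBR2, ACVR1 and SMAD1. The GC slopes of these libraries were 1.149 and 3.039 in replicates 1 and 2, and -0.813 and -0.895 in replicates 3 and 5; the part of GC content in this spread was not tested.

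BMPR1B (ENSG00000138696, chromosome 4), a BMP type I receptor, rose under miR-99b-5p. Its libraries held 20.8, 26.5, 28.8 and 26.2 CPM, against 13.2, 12.1, 13.5 and 15.6 CPM in the control. The lowest mimic library was above the highest control library, and the log2 change was 0.91 ± 0.16, a level 1.88 times that of the control (adjusted p = 0.000159, edgeR).

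BMPR1B was higher under miR-99b-5p than under each of the other 5 mimics, with adjusted p between 2.32e-05 and 0.0241 (edgeR), where 15.3% to 33.5% of all genes were called. The smallest of these differences was from miR-380-3p, which stood second in the order of means (0.48 ± 0.15). This call was lost without replicate 3 or 4 of miR-99b-5p, and without replicate 1, 2 or 3 of miR-380-3p, with adjusted p between 0.0516 and 0.0821 (edgeR). Under miR-380-3p BMPR1B had 17.0, 15.7, 18.4 and 22.3 CPM, all above the 4 control libraries, but it was not called (log2 change 0.43 ± 0.16, adjusted p = 0.0845, edgeR). It was called in 3 of 16 alternatives, with adjusted p between 0.0181 and 0.0474 (edgeR). The remaining groups averaged 12.9 ± 3.68 under miR-485-3p, 16.2 ± 3.35 under miR-100-3p, 15.5 ± 1.44 under miR-1915-3p and 15.3 ± 1.53 CPM under miR-1283, against 13.6 ± 1.46 CPM in the control. The 1 miR-485-3p heptamer and the 1 miR-1283 heptamer in its UTR went with log2 changes of -0.07 and 0.17.

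BMPR1A (ENSG00000107779, chromosome 10), the other dedicated BMP type I receptor, was called in 0 of its 6 comparisons with the control by edgeR or by DESeq2, and in 0 of 15 direct pairs by edgeR, with 0 unadjusted p-values under 0.05. With the GC slope as a covariate it was called higher under miR-485-3p (0.18, adjusted p = 0.0327, edgeR). Its means lay between 61.1 ± 8.84 CPM under miR-1283 and 71.9 ± 4.45 CPM under miR-380-3p, against 62.1 ± 6.97 CPM in the control. Its log2 changes ran from -0.02 to 0.21, and its UTR of 9119 bases held single heptamers of miR-380-3p, miR-485-3p and miR-1915-3p.

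ACVR1 (ENSG00000115170, chromosome 2), a type I receptor for BMPs and activins, was not called against the control, and its lowest adjusted p was 0.0808, under miR-99b-5p (edgeR). It averaged 6.66 ± 0.825 CPM under miR-99b-5p, 5.37 ± 0.605 under miR-380-3p, 5.97 ± 1.28 under miR-485-3p, 4.54 ± 0.691 under miR-100-3p, 5.53 ± 0.431 under miR-1915-3p and 5.52 ± 0.554 under miR-1283, against 5.07 ± 1.06 in the control. The extremes of this order differed in the direct comparison: ACVR1 was higher under miR-99b-5p than under miR-100-3p by 0.56 ± 0.16 on the log2 scale (adjusted p = 0.0086, edgeR).

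Among the type II receptors, BMPR2 (ENSG00000204217, chromosome 2), which binds BMP ligands, fell under miR-100-3p. Its libraries held 30.0, 36.8, 36.7 and 24.4 CPM, against 55.9, 52.3, 45.8 and 55.9 CPM in the control. No miR-100-3p library reached the lowest control library, and the log2 change was -0.72 ± 0.16 (adjusted p = 0.00464, edgeR).

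BMPR2 was below its level in each of the other 5 mimic groups as well, and all 5 direct comparisons with miR-100-3p were called. The closest neighbour was miR-380-3p, with 55.1, 41.3, 48.8 and 50.2 CPM, which exceeded miR-100-3p by 0.62 ± 0.16 on the log2 scale (adjusted p = 0.00614, edgeR). The other means were 56.1 ± 4.54 under miR-99b-5p, 50.1 ± 11.9 under miR-485-3p, 53.4 ± 10.2 under miR-1915-3p and 56.2 ± 8.5 CPM under miR-1283, against 52.5 ± 4.76 CPM in the control, and none of these neighbours differed beyond their spread. The UTR of BMPR2 held 4 miR-1283 heptamers, a number reached by 2.01% of 447 UTRs of like length, and its log2 change under miR-1283 was 0.10 ± 0.15.

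**Figure D3:**
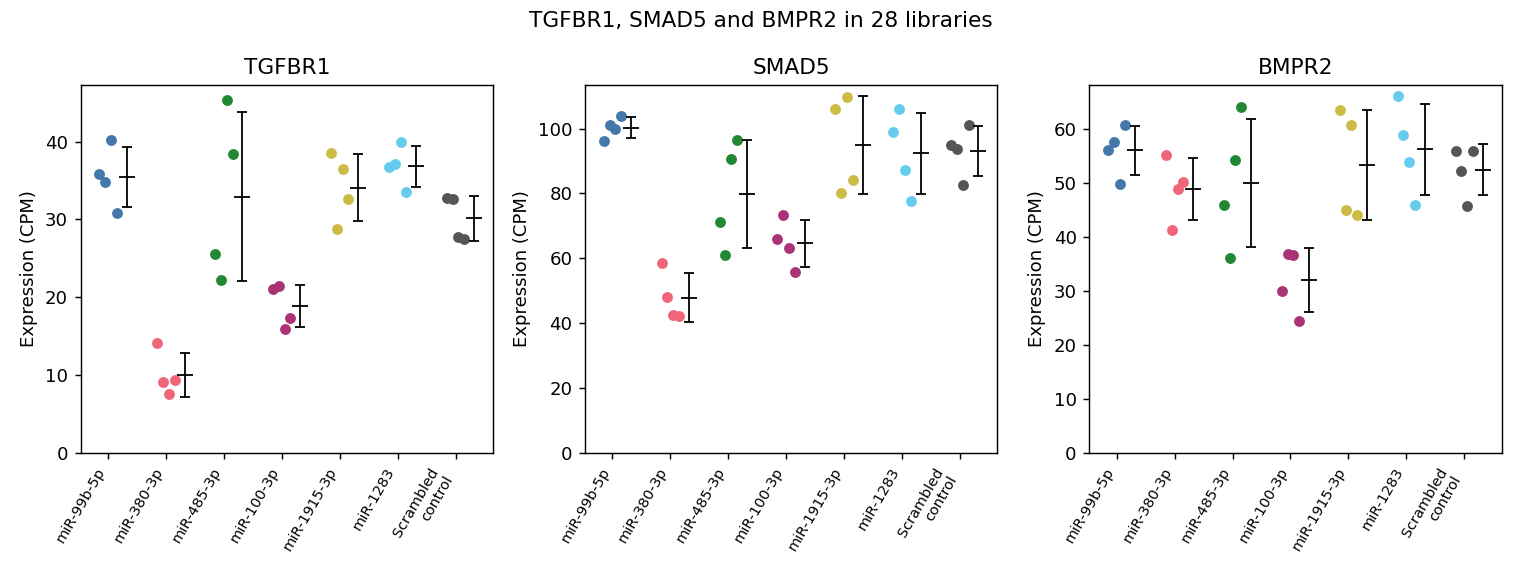
Points are CPM of TGFBR1, SMAD5 and BMPR2 in each of the 28 libraries by group, with the mimics left of the scrambled control and bars for the mean and SD of 4 libraries. TGFBR1 and SMAD5 are lowest under miR-380-3p (means 10.0 and 47.8 CPM), and BMPR2 is lowest under miR-100-3p (32 CPM).

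The activin receptors ACVR2A and ACVR2B moved in opposite directions under miR-99b-5p. ACVR2B (ENSG00000114739, chromosome 3) had 123, 104, 101 and 148 CPM under miR-99b-5p, against 202, 212, 175 and 231 CPM in the control. Every mimic library was lower than every control library, with a log2 change of -0.78 ± 0.13 (adjusted p = 0.000114, edgeR). ACVR2A (ENSG00000121989, chromosome 2) had 8.21, 9.55, 10.1 and 8.54 CPM under miR-99b-5p, against 6.81, 4.94, 6.1 and 6.25 CPM in the control. Here every mimic library was higher, with a log2 change of 0.59 ± 0.13 (adjusted p = 0.0026, edgeR). In the miR-99b-5p libraries the 9 adrenergic markers summed to between 7990.1 and 9954 CPM, against 11404 to 12424 CPM in the control, with 4 of 9 called lower. The 8 markers of other cell types summed to between 6.93 and 8.29 CPM under miR-99b-5p, against 12.7 to 15.4 CPM in the control. Without COL1A1 the other 7 summed to between 2.86 and 3.66 CPM under miR-99b-5p, against 5.0 to 6.64 CPM in the control. That sum also lay below the control range under miR-380-3p and miR-485-3p, and overlapped it under each remaining mimic. The part of either list in the miR-99b-5p results was not tested.

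ACVR2B was lower under miR-99b-5p than under each of the other 5 mimics, with log2 differences from -0.81 to -0.52 and adjusted p between 7.57e-05 and 0.00334 (edgeR). The other mimic groups averaged 188 ± 27.4 CPM under miR-380-3p, 170.1 ± 35.3 under miR-485-3p, 178 ± 14.7 under miR-100-3p, 199 ± 21.6 under miR-1915-3p and 208 ± 18.1 under miR-1283, against 205 ± 23.5 CPM in the control, and no neighbours among these differed beyond their spread. Under miR-485-3p ACVR2B was not called against the control (-0.27 ± 0.13, adjusted p = 0.161, edgeR). It was called lower there in 3 of 16 alternatives, with adjusted p between 0.0228 and 0.0488 (edgeR). Without miR-485-3p replicate 5 it was also called lower than under miR-1915-3p and miR-1283 (adjusted p = 0.0434 and 0.0146, edgeR). The UTR of ACVR2B held no miR-99b-5p heptamer, but 1 hexamer complementary to bases 2 to 7. BMPR2 also held 1 such hexamer and was not called under miR-99b-5p (log2 change 0.10). Of tested genes with a UTR 7.76% held this hexamer, and 23.7% of those were called lower, against 7.98% of genes without it.

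ACVR2A was also called under miR-485-3p, with 8.2, 5.66, 9.12 and 8.6 CPM against the control libraries above. These groups overlapped, since miR-485-3p replicate 2 lay below 3 of the controls, and the log2 change was 0.40 ± 0.14 (adjusted p = 0.0383, edgeR). The call was lost on leaving out miR-485-3p replicate 1, 3 or 5 or control replicate 2, 4 or 5, with adjusted p between 0.0585 and 0.189 (edgeR). In the miR-485-3p libraries the adrenergic markers summed to between 7325 and 10074 CPM, with 4 of 9 called lower and 0 higher, and their part was not tested. The ACVR2A call was lost too without the filter on low counts (0.127) and with only the 8 libraries compared (0.155). In the remaining groups ACVR2A averaged 7.85 ± 0.439 CPM under miR-380-3p, 6.76 ± 0.532 under miR-100-3p, 7.62 ± 1.52 under miR-1915-3p and 7.87 ± 0.251 under miR-1283, against 6.03 ± 0.782 CPM in the control. All 4 libraries of miR-380-3p and of miR-1283 were above all 4 controls (log2 change 0.38 in both, adjusted p = 0.0723 and 1.0, edgeR).

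**Figure D4:**
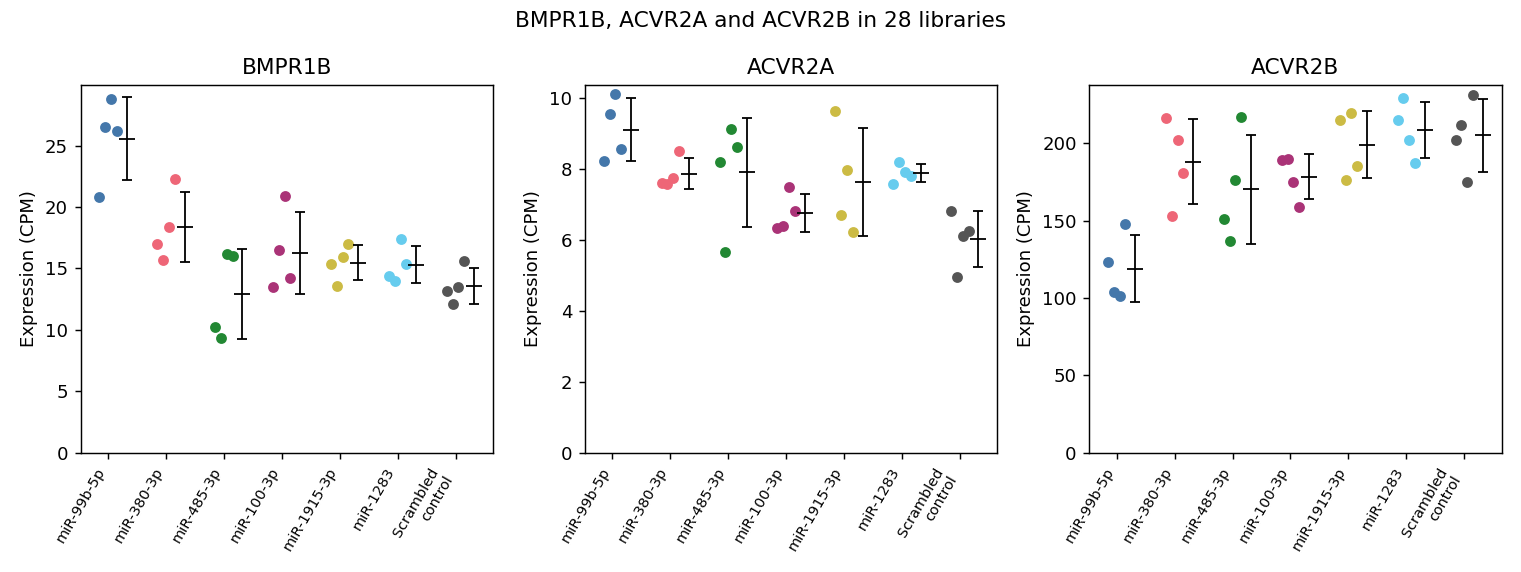
Points are CPM of BMPR1B, ACVR2A and ACVR2B in each of the 28 libraries by group, with the mimics left of the scrambled control and bars for the mean and SD of 4 libraries. Under miR-99b-5p BMPR1B and ACVR2A have their highest means (25.6 and 9.09 CPM) and ACVR2B its lowest (119 CPM).

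TGFBR2 (ENSG00000163513, chromosome 3) was the member with the fewest counts. Its means were 1.59 ± 0.361 CPM under miR-99b-5p, 1.67 ± 0.333 under miR-380-3p, 1.4 ± 0.371 under miR-485-3p, 1.99 ± 0.157 under miR-100-3p, 1.8 ± 0.173 under miR-1915-3p and 1.27 ± 0.225 under miR-1283, against 1.7 ± 0.325 CPM in the control. No comparison with the control and no direct pair was called, and with standard errors of 0.20 to 0.21 on the log2 scale only large changes were detectable. All miR-100-3p libraries were above all miR-1283 libraries (log2 difference 0.65 ± 0.21, adjusted p = 0.0624, edgeR). Without miR-485-3p replicate 5, TGFBR2 was called lower under miR-485-3p than under miR-100-3p (-0.72, adjusted p = 0.0147, edgeR).

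SMAD5 (ENSG00000113658, chromosome 5), a signal carrier of the BMP receptors, fell under the same 2 mimics as TGFBR1. Under miR-380-3p it had 58.4, 48.1, 42.5 and 42.1 CPM, against 95.0, 93.8, 82.7 and 101 CPM in the control. The groups were far apart, and the log2 change was -0.97 ± 0.13, a level 0.512 times that of the control (adjusted p = 1.32e-05, edgeR). Under miR-100-3p it had 66, 73.5, 63.1 and 55.9 CPM, all below the controls, with a log2 change of -0.53 ± 0.13 (adjusted p = 0.0145, edgeR). Leaving out control replicate 5 (adjusted p = 0.0532, edgeR) or miR-100-3p replicate 4 (0.0515) ended this call.

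The miR-380-3p level of SMAD5 was below that under miR-100-3p (log2 difference -0.44 ± 0.13, adjusted p = 0.0227, edgeR), although 1 library of the miR-380-3p group overlapped. This call was lost without replicate 3 or 4 of miR-380-3p, and without replicate 2 of miR-100-3p, with adjusted p between 0.08 and 0.086 (edgeR). The remaining means were 100.2 ± 3.13 CPM under miR-99b-5p, 79.8 ± 16.5 under miR-485-3p, 94.9 ± 15.0 under miR-1915-3p and 92.4 ± 12.4 under miR-1283, against 93.1 ± 7.63 CPM in the control. SMAD5 held 0 miR-100-3p heptamers and 1 hexamer. At least 1 miR-100-3p hexamer was held by 9 members, of which 3 fell under that mimic, and by 41.8% of tested genes with a UTR. The 2 miR-1283 heptamers of SMAD5 went with a log2 change of -0.01 ± 0.13.

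SMAD1 (ENSG00000170365, chromosome 4), the close relative of SMAD5, was not called against the control under any mimic. Its means were 20.2 ± 1.52 CPM under miR-99b-5p, 24.1 ± 2.38 under miR-380-3p, 20.7 ± 0.697 under miR-485-3p, 24.2 ± 3.1 under miR-100-3p, 21.4 ± 1.35 under miR-1915-3p and 21.9 ± 1.27 under miR-1283, against 22.3 ± 1.83 CPM in the control. The miR-99b-5p libraries were below those of miR-380-3p and of miR-100-3p, by a log2 difference of -0.26 ± 0.09 in both (adjusted p = 0.03 and 0.0335, edgeR). Without miR-100-3p replicate 3, which lay far above the other 3 of its group, the difference from miR-100-3p was -0.17 (adjusted p = 0.173, edgeR). It was also lost without miR-99b-5p replicate 3 or 4 (0.087 and 0.114). The difference from miR-380-3p was lost without miR-380-3p replicate 4 (-0.19, adjusted p = 0.144, edgeR) or miR-99b-5p replicate 3 or 4 (0.0808 and 0.105).

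Over the 15 direct pairs of mimics, 38 of 150 comparisons of a member were called, against 18.4% of all genes and pairs. TGFBR1 was called in 9 pairs, SMAD5 in 8, BMPR1B in 6, BMPR2 and ACVR2B in 5 each, ACVR1 and SMAD1 in 2 each, ACVR2A in 1, and BMPR1A and TGFBR2 in 0. On leaving out each library of the 2 mimics compared, 30 of the 38 calls held throughout. Lost in at least 1 fit were BMPR1B and SMAD1 between miR-99b-5p and miR-380-3p, and ACVR2A and SMAD1 between miR-99b-5p and miR-100-3p. So were BMPR1B between miR-380-3p and miR-485-3p, and ACVR1 between miR-485-3p and miR-100-3p. The last were SMAD5 between miR-100-3p and both miR-380-3p and miR-1283. Other comparisons were called only in some of these fits. They were TGFBR2, BMPR1B, ACVR2A, SMAD1 and SMAD5 between miR-485-3p and miR-100-3p, and SMAD5 between miR-99b-5p and miR-485-3p. They also included ACVR2A between miR-99b-5p and miR-1915-3p, and SMAD1 between miR-380-3p and miR-485-3p. The rest were ACVR2B between miR-485-3p and both miR-1915-3p and miR-1283. The pair with the most calls was miR-99b-5p with miR-100-3p, where 8 of 10 members were called, 6 higher and 2 lower under miR-99b-5p, against 23.4% of all genes (11.9% higher and 11.5% lower). In the other pairs with miR-99b-5p, 5 of 10 members were called against miR-380-3p, where 24% of all genes were, 2 against miR-485-3p (33.5%), 2 against miR-1915-3p (19.1%) and 2 against miR-1283 (15.3%). For miR-380-3p the members called were 3 against miR-485-3p (29% of all genes), 3 against miR-100-3p (17.4%), 2 against miR-1915-3p (14.5%) and 2 against miR-1283 (11.6%). For miR-485-3p they were 3 against miR-100-3p (28.5%), and edgeR called 0 against miR-1915-3p (23.1%) and 0 against miR-1283 (19.5%), with 0 and 1 unadjusted p under 0.05. For miR-100-3p they were 3 against miR-1915-3p (11.4%) and 3 against miR-1283 (5.8%). Between miR-1915-3p and miR-1283 edgeR called 0 members (0.252% of all genes), with 1 unadjusted p under 0.05.

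Members and mimics form 60 pairs, of which 15 had at least 1 seed heptamer. In those 15, 4 members were called, all lower, with a median log2 change of -0.01. In the 45 pairs without one, 5 were called, 2 of them lower, with a median of 0.09. The falls of TGFBR1 and SMAD5 under miR-380-3p and of TGFBR1 and BMPR2 under miR-100-3p made up the 4. BMPR1A and ACVR2B also held 1 miR-380-3p heptamer each and were not called, at 0.21 ± 0.12 and -0.12 ± 0.13. The falls of SMAD5 under miR-100-3p and of ACVR2B under miR-99b-5p went without a heptamer.

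Among the 12662 tested genes with a UTR, 15.7% held a miR-380-3p heptamer, and of these 13.9% were called lower under that mimic, against 4.12% of genes without one. For miR-100-3p, 11.7% of genes held one, with 8.7% called lower against 2.71% without. For miR-485-3p, 15.3% held one, with 26.6% called lower against 8.13% without, while 0 of the 3 members with that heptamer were called. For miR-99b-5p, whose heptamer no member held, 1.51% of genes held one, with 38.2% called lower against 8.76% without. For miR-1915-3p, 25.7% held one, with 0.431% called lower against 0.223% without, and the 1 member with it was not called. The 5 members with a miR-1283 heptamer matched a mimic under which 0.0375% of genes with the heptamer were called lower, against 0.02% of genes without.

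**Figure D5:**
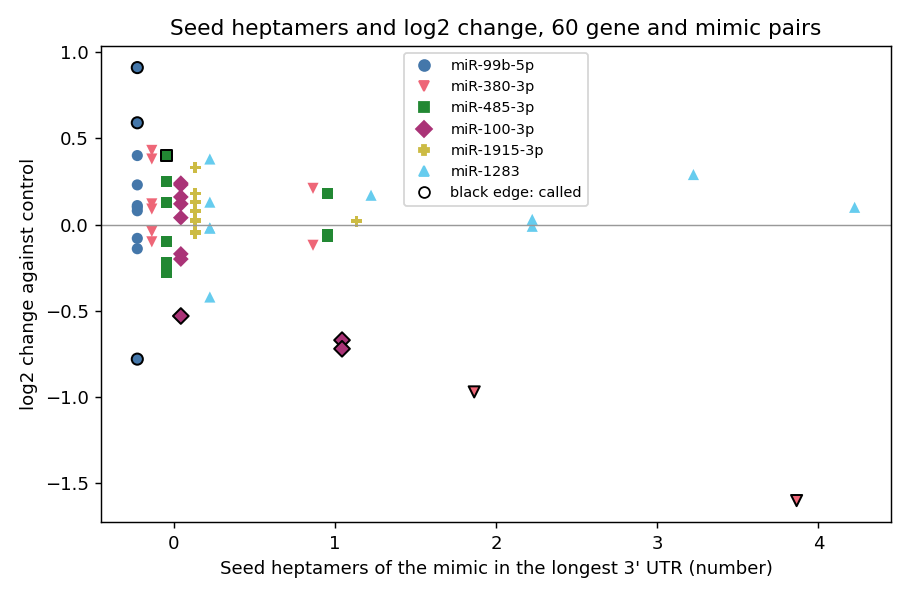
Each symbol is 1 of the 60 pairs of a gene and a mimic, by the number of seed heptamers of that mimic in the 3′ UTR (x, symbols shifted sideways by mimic) and the log2 change against the control (y). The pairs with 2 and 4 miR-380-3p heptamers lie at -0.97 and -1.60, while the pairs with 2 to 4 miR-1283 heptamers lie between -0.01 and 0.29.

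The rest of the pathway was read from 6 lists, of which 83 genes were tested. Under miR-99b-5p 11 of them rose and 8 fell. The counts were 11 and 4 for miR-380-3p, 10 and 10 for miR-485-3p, and 4 and 4 for miR-100-3p. For miR-1283 and miR-1915-3p edgeR and DESeq2 called 0 list genes, while 3 and 14 had an unadjusted p under 0.05. The shares of all genes called in each direction are those given for the members: 8.11% and 8.48% for miR-99b-5p, 5.6% and 5.25% for miR-380-3p, 10.5% and 10.6% for miR-485-3p, and 2.9% and 3.05% for miR-100-3p.

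Of 9 other receptors and co-receptors, 4 rose and 0 fell under miR-99b-5p (median log2 change 0.37, against -0.003 for all genes). They included the activin receptor ACVR1B (121 ± 7.14 CPM against 94.4 ± 3.04 in the control, log2 change 0.35 ± 0.05, adjusted p = 2.45e-05, edgeR) and the decoy receptor BAMBI, which lacks a kinase (18.1 ± 3.53 against 12 ± 1.71 CPM, 0.59 ± 0.14). Under miR-380-3p the co-receptor NEO1 rose (0.76 ± 0.11) and ENG, a co-receptor for BMP and TGF-beta ligands, fell to 1.39 ± 0.81 CPM against 3.79 ± 0.552 in the control (-1.48 ± 0.26, adjusted p = 0.000325, edgeR). ENG also fell under miR-485-3p (-1.13 ± 0.25), as did ACVRL1, a type I receptor best known from endothelium (-0.87 ± 0.26). The highest mean of either gene among these groups was 3.79 CPM, and the ACVRL1 call was lost on leaving out miR-485-3p replicate 3 (adjusted p = 0.0757, edgeR) or control replicate 2 (0.0539).

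Of the 6 other SMADs, SMAD7, an inhibitor of the receptors, rose under miR-99b-5p (0.44 ± 0.12, adjusted p = 0.0143, edgeR), and SMAD6, the inhibitor of the BMP branch, fell under miR-380-3p (-0.46 ± 0.12, adjusted p = 0.0154). Under miR-485-3p the shared partner SMAD4 fell (-0.34 ± 0.10) and SMAD2 rose (0.27 ± 0.09). SMAD2 was called in 8 of 16 alternatives, and without miR-485-3p replicate 3 its log2 change was 0.15 (adjusted p = 0.338, edgeR). Among 24 SMAD partners and receptor regulators, 3 rose and 2 fell under miR-99b-5p, including the ubiquitin ligases NEDD4L (0.46 ± 0.11), SMURF1 (0.36 ± 0.09) and WWP1 (-0.46 ± 0.11). ZFYVE9, which presents SMAD2 and SMAD3 to the receptor, rose under miR-380-3p (0.36 ± 0.10). Under miR-100-3p its log2 change was -0.33 ± 0.10 (adjusted p = 0.0475, edgeR), which passed the threshold in only 4 of 16 alternatives, with adjusted p up to 0.144. The calls for SMAD7, SMAD6, SMAD4, SMAD2 and ZFYVE9 were each lost on leaving out at least 1 library.

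Of 12 ligands, 1 rose and 5 fell under miR-99b-5p, among them BMP7 (128 ± 10.1 CPM against 159 ± 8.2 in the control, -0.32 ± 0.06, adjusted p = 0.000961, edgeR) and TGFB2 (-0.80 ± 0.18). TGFB2 rose under miR-100-3p (0.80 ± 0.17), and TGFB3 fell under miR-99b-5p (-0.58), miR-380-3p (-0.96) and miR-485-3p (-0.56), of which the first and the third call were each lost on leaving out at least 1 library. GDF11, an activin-like ligand, rose under miR-380-3p and miR-100-3p (0.52 ± 0.09 and 0.44 ± 0.09) and fell under miR-485-3p (-0.40 ± 0.09). GDF6, a BMP-type ligand, reached 4.99 ± 1.18 CPM under miR-380-3p against 1.41 ± 0.52 in the control (1.84 ± 0.22, adjusted p = 2.22e-06, edgeR).

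Among 14 extracellular regulators, 3 rose and 0 fell under miR-380-3p, led by FSTL1 (0.63 ± 0.09), and LRRC32, which holds latent TGF-beta, rose under miR-485-3p (1.00 ± 0.16) where the BMP-binding TWSG1 fell (-0.76 ± 0.16). Of 18 genes known as targets of the pathway, 3 rose under miR-380-3p, among them fibronectin FN1 (0.82 ± 0.16) and DLX5 (0.87 ± 0.18). Under miR-485-3p 3 rose and 2 fell, with ID2, a classical BMP target, at 155 ± 14.4 CPM against 263 ± 24.7 in the control (-0.76 ± 0.09, adjusted p = 2.34e-07, edgeR). Under miR-99b-5p the collagen gene COL1A1, one of the markers of other cell types above, fell (-0.99 ± 0.18) and the cell cycle inhibitor CDKN1A rose (1.04 ± 0.22), and under miR-100-3p 2 of 18 fell, including KLF10 (-0.42 ± 0.11), a call lost without miR-100-3p replicate 1 or 4 or control replicate 1 or 2 (adjusted p between 0.0592 and 0.112, edgeR).

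The members most alike across the 28 libraries were TGFBR1 and SMAD5, with a Pearson r of 0.93 for log2 CPM. After the group means were removed their r was 0.76, and other pairs were then more alike. Among these were BMPR1A with BMPR2 (0.88), BMPR2 with SMAD5 (0.83) and BMPR1A with SMAD5 (0.81). The points share libraries and the same 7 groups, and r without group means still includes differences between libraries in depth and GC slope. With the group means kept, r over the 45 pairs of members ran from -0.59 to 0.93. Among tested genes whose log2 CPM averaged 2 or more, those most like TGFBR1 were SLC18A2 (r = 0.941) and CAND1 (0.94), and those most like SMAD5 were CAND1 (0.964) and PPIP5K2 (0.947). BMPR2 was closest to IL6ST (0.948) and STAG2 (0.946), BMPR1B to FREM1 (0.894) and DCX (0.889), ACVR2B to OTULIN (0.894) and TRIM71 (0.876), and ACVR2A to OXSR1 (0.782) and RGS17 (0.773).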

How the data were processed

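The authors aligned reads to hg19 with STAR, per the submitters' processing notes; the counting tool is not given in the sources used here. The values deposited are expected counts of each gene in 28 libraries, of which 10.2% are not whole, and a transcript length that was used only for levels per kilobase. Counts were rounded, and 0 columns were left without a sample. The default filter of edgeR 4.0.16 (filterByExpr, R 4.3.3) left 15058 of 30887 rows, and scaling was by TMM. The edgeR quasi-likelihood test, two-sided, was fitted to all libraries by group, with 21 residual degrees of freedom and Benjamini-Hochberg adjustment over all genes of a comparison. CPM use the effective library size and are given as mean ± SD, and log2 changes as estimate ± SE.

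The members and gene lists were chosen with earlier results of these data known. The text names all members, then up to 3 called genes per list and mimic with the smallest adjusted p and a log2 CPM averaging at least 1, and the 2 genes, among those whose log2 CPM averaged 2 or more, most correlated with each called member. Not every gene this allows is described. Seed heptamers were searched in GENCODE v29 transcripts on GRCh38, a build other than the authors' hg19, in UTRs of at least 50 bases, so the UTRs used in these cells may differ.

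No 2 libraries of a group agreed within sampling noise. Replicate numbers are shared between the groups. For miR-1283 the 3 same-numbered pairs with the control deviated together (correlations 0.391, 0.619 and 0.253), as did those of miR-99b-5p (0.393 and 0.176). Libraries of different numbers were not compared in this way, so whether the numbers mark pairing cannot be told. All values are from the fit by group unless stated, and the blocked fit called 0 members for miR-1283 too. For miR-1915-3p, replicates 1 and 4 carry a suffix in their titles whose meaning is not stated. Alternatives were DESeq2 1.42.0, other scalings, no filter, a replicate block, library code ranges, a GC slope covariate, only the 8 libraries compared, and leaving out each library. Repeating the direct pairs of mimics without each library was added after the data were seen.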

Additional observations from a re-analysis of the deposited data

Results flagged for a closer look

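Of 70 groups of 4 libraries checked, one for each member and group, 2 held a library far from the other 3, and chance flags about 1 in 20 groups. ACVR2A was at 8.51 CPM in miR-380-3p replicate 4, against 7.58 to 7.73 CPM in the other 3. SMAD1 was at 28.8 CPM in miR-100-3p replicate 3, against 22.1 to 23.0 CPM in the other 3. Neither gene was called under the mimic concerned against the control, but ACVR2A under miR-380-3p was called with library code ranges (adjusted p = 0.0491, edgeR). The direct difference of SMAD1 between miR-99b-5p and miR-100-3p was -0.26 (adjusted p = 0.0335, edgeR) with all libraries and -0.17 (0.173) without miR-100-3p replicate 3.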

How the results depend on the processing

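TGFBR1 and SMAD5 under miR-380-3p, BMPR2 under miR-100-3p, and BMPR1B, ACVR2A and ACVR2B under miR-99b-5p were called in the same direction in all 16 alternatives run for each, 8 of which leave out 1 library. Their log2 changes ranged from -1.80 to -1.48, -1.07 to -0.908, -0.856 to -0.606, 0.809 to 0.995, 0.502 to 0.657 and -0.902 to -0.711. No called member reversed. Of the 38 calls between mimics, 30 held in all 8 fits that leave out 1 library of the pair, an alternative chosen after seeing the data. The cause of the changes below was not tested. Shares of all genes called were counted for the main fit only, so the counts below cannot be set beside them.

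Under miR-380-3p 4 members were called with library code ranges, against 2, the added ones being BMPR1B and ACVR2A. Under miR-485-3p the count of 1 became 0 without a filter and with only the 8 libraries. It was 2 with the replicate block, 3 with the GC slope, and 0 to 1 on leaving out a library. Without replicate 5 of that mimic the 1 was ACVR2B (-0.419, adjusted p = 0.0245, edgeR), and ACVR2A was lost (0.103). The replicate block added ACVR2B there (-0.321, adjusted p = 0.0228, edgeR), and BMPR1B under miR-380-3p (0.46, adjusted p = 0.0181, edgeR). Under miR-100-3p the count of 3 became 1 to 3 on leaving out a library, 1 without replicate 4 of that mimic.

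Of the pathway lists, 9 to 18 genes were called under miR-380-3p on leaving out a library, against 15, with 9 without replicate 4 of that mimic. Under miR-485-3p the 20 genes became 32 with the GC slope, 12 with only the 8 libraries and 12 to 21 on leaving out a library. Under miR-100-3p the 8 became 16 with the GC slope and 4 both without a filter and with only the 8 libraries. Under miR-1915-3p the 0 became 1 with the GC slope. With hexamers, 40 pairs of member and mimic had a match, against 15. The shared numbers were not taken as pairing in the main fit for any mimic. Over the 17 same-numbered pairs the correlations ran from -0.19 to 0.624, with 11 over 0.1, and the block lost no member call.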
